A study of Homo sapiens with 6 samples.

Results

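The hepatic bile acid and drug uptake transporters are a list of 9 solute carrier genes, SLC10A1, SLCO1B1, SLCO1B3, SLCO2B1, SLCO4C1, SLC22A7, SLC22A9, SLC51A and SLC51B, which were looked up by gene name among the 29153 genes of the deposited table. Of the 9, 8 were in the table, and SLCO1B1 is not analysed here. The cells were of HepG2, an established cell line from a human liver cancer, infected for 72 h with a lentivirus carrying a control hairpin (sh-NC) or a short hairpin RNA against the long noncoding RNA LINC01977 (sh-LINC01977, the hairpin that the labels number 3), with 3 libraries of total RNA in each group. Both groups were infected, and the study's methods describe selection of infected cells with puromycin, so both carry a hairpin vector. A single cell line was used, and nothing states that the libraries came from separate cultures, so a p-value measures only the spread between these libraries, which may be technical.

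Hepatocytes take bile acids up from blood across the basolateral membrane and secrete them into bile across the canalicular membrane. Uptake is known to rest on the sodium-dependent carrier NTCP (SLC10A1) and on the sodium-independent organic anion transporting polypeptides (OATPs, the SLCO genes), which also carry statins, hormone conjugates and other drugs, while organic anion transporters of the SLC22 family exchange smaller anions. OSTα and OSTβ, encoded by SLC51A and SLC51B, form a heteromeric carrier on the basolateral membrane that lets bile acids leave the cell, and its genes are known targets of the bile acid receptor FXR.

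In sh-LINC01977 cells, 3 of the 8 transporters were lower than in sh-NC cells and 0 were higher at an adjusted p under 0.05, by edgeR's quasi-likelihood test on counts with Benjamini-Hochberg adjustment over all genes fitted. The 3 were SLC22A7, at 32.0% of its control level, SLCO4C1, at 40.7%, and SLC51B, at 57.0%. SLC51A, the partner subunit of SLC51B, had a value of the same size but libraries that overlapped, and SLCO2B1 had a log2 fold change near zero. SLC10A1, SLCO1B3 and SLC22A9 had few counts in both groups. At an unadjusted p under 0.05, 4 of the 8 were lower and 0 higher in the fit of all listed genes, where 8.47% of all genes were lower and 8.69% higher at that threshold. DESeq2 on all listed genes also called 4 lower and 0 higher, and it called 8.81% lower and 8.03% higher of the 16683 genes to which it gave an adjusted p.

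Of the 8 transporters, 4 had a mean FPKM (fragments per kilobase of transcript, scaled to library size) of at least 0.5 over the 6 libraries and were tested together with 13452 genes above that filter. Among these genes, 8.07% were called lower and 7.05% higher, and of the 4 transporters SLC51B and SLC22A7 were called lower. SLC22A7 passed the filter only through the sh-NC libraries (0.848 FPKM on average, against 0.283 FPKM in sh-LINC01977 libraries), so its own difference decided its place there, and its count is a description. The other 4 lay below the filter and were read from a fit of all 29153 listed genes, in which 2.92% were called lower and 2.44% higher, and of them SLCO4C1 was called lower. In the fit of all listed genes and without SLC10A1, which was near the floor, 6 of 7 had a log2 fold change below zero, with a median of -0.82 against 0.014 over all genes fitted. Past a fold change of 2 with an unadjusted p of 0.05, the thresholds of the study's methods, 1.05% of tested genes and 1.20% of all listed genes were lower. SLC22A7 and SLCO4C1 were past these thresholds, and SLC51B was not.

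Total counts were between 50583944 and 59888839 in the sh-NC libraries and between 49929024 and 60441515 in the sh-LINC01977 libraries, and mitochondrial genes held 11.7% to 13.5% and 10.6% to 11.7% of them. The targeted gene LINC01977 had counts of 4, 0 and 16 with sh-NC and 0, 0 and 4 with sh-LINC01977, so the knockdown was not detectable in these counts and the groups rest on the labels. The study also measured LINC01977 by qRT-PCR, which is not analysed here. Of 9 markers of hepatocytes and HepG2, ALB, AFP, APOA1, SERPINA1, FGB and TF were called lower and 0 were called higher (0 higher at an unadjusted p under 0.05 and by DESeq2). Their summed level was 4808 to 5238 FPKM in sh-NC and 3574 to 3621 FPKM in sh-LINC01977 libraries, a fall that went with the lower levels of SLC22A7, SLCO4C1 and SLC51B, and its part in them was not tested. In bulk RNA, fewer cells that express a gene and less RNA per cell cannot be told apart. Of the other cell types considered, markers of kidney proximal tubule, a site of SLCO4C1 expression, summed to at most 0.0176 FPKM in any library. Of 4 tested cholangiocyte markers, SPP1 (-0.59) and SOX9 (-0.24) were called lower and KRT19 (0.57) higher. The sum of all 5, mostly SPP1 and KRT19, was 661 to 704 FPKM in sh-NC and 607 to 627 FPKM in sh-LINC01977 libraries. KRT7, below the filter, had 0.156 and 0.341 FPKM on average. In the same order of groups, enterocyte markers, nearly all VIL1, summed to 48.0 to 53.8 and 44.4 to 48.5 FPKM. Mesenchymal markers, mostly COL1A1, summed to 3.04 to 4.21 and 5.48 to 7.67 FPKM, with PDGFRB called higher (1.47, adjusted p = 0.00620) and VIM at a mean of 0.181 and 0.0615 FPKM. Leukocyte markers, nearly all CD68, summed to 9.82 to 12.9 and 14.6 to 16.7 FPKM, and the part of these markers in the transporters' values was not tested.

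**Figure D1:**
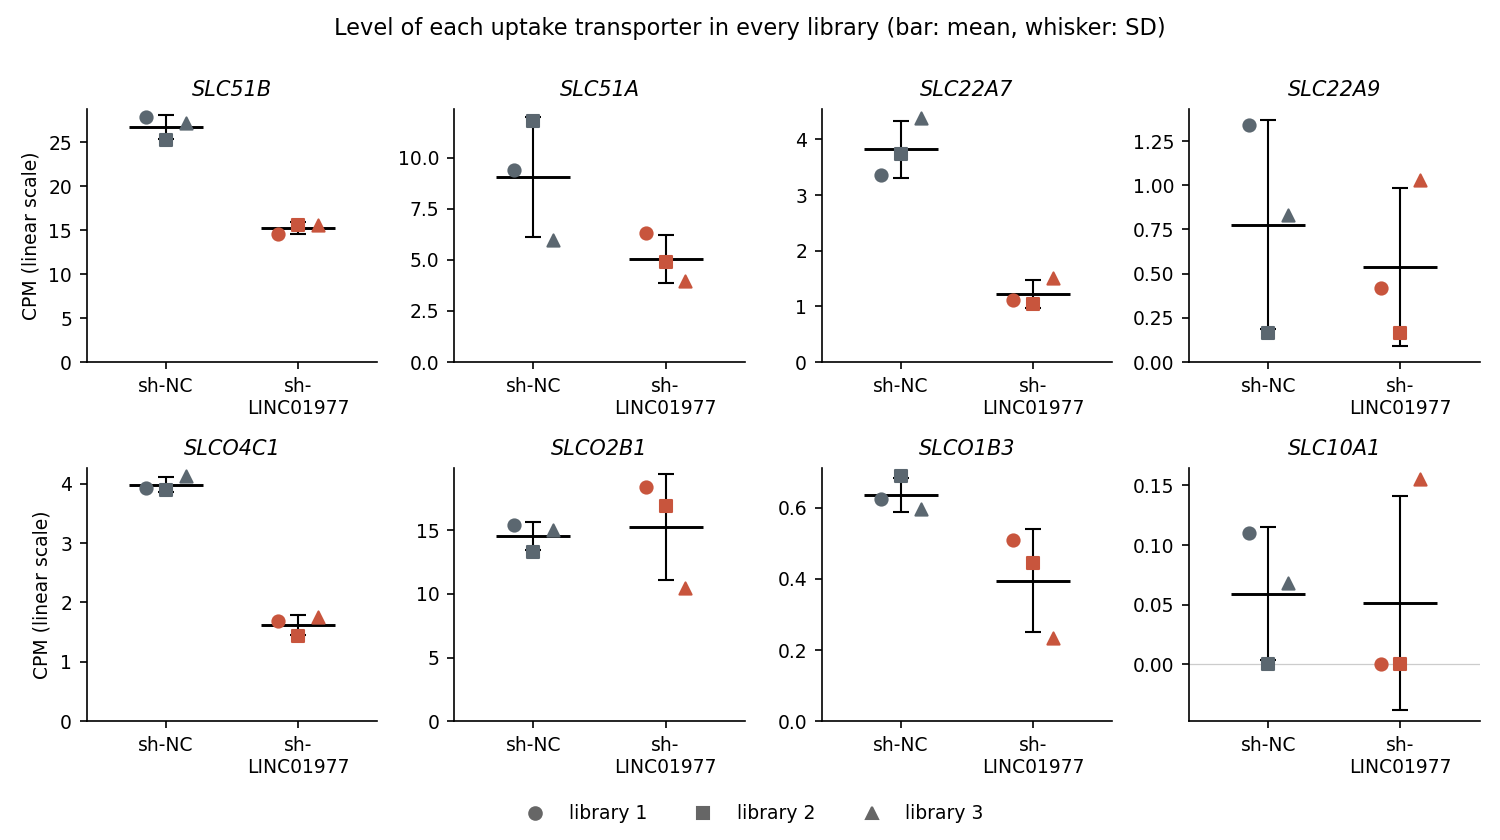
Level of each of the 8 transporters as CPM (counts scaled by TMM to a common library size, linear axis with its own range in each panel) in the 3 sh-NC and the 3 sh-LINC01977 libraries, with the mean as a bar and the SD as a whisker. SLC51B, SLC22A7, SLCO4C1 and SLCO1B3 show no overlap between the groups, and SLC51A, SLC22A9, SLCO2B1 and SLC10A1 do.

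SLC51B (ENSG00000186198, chr15:65045370-65053396 on the plus strand of hg38) encodes OSTβ, the small subunit that brings OSTα to the membrane. It was the most abundant of the transporters per length. The sh-NC libraries held 1514, 1241 and 1601 counts and the sh-LINC01977 libraries 800, 948 and 801. Scaled to library size, these were 27.8, 25.2 and 27.2 CPM against 14.5, 15.6 and 15.6 CPM. Each sh-LINC01977 library lay well below the lowest sh-NC library, and the spread within each group was small. The mean fell from 26.7 ± 1.4 to 15.2 ± 0.60 CPM (SD, n = 3 each), and the log2 fold change was -0.81 (standard error 0.078, 95% interval -1.0 to -0.62, adjusted p = 0.00174 from edgeR). The exact two-sided permutation test gave p = 0.1, the smallest that 3 libraries against 3 allow. SLC51B was called in all 16 alternatives run, with log2 fold changes from -0.85 to -0.71 and adjusted p up to 0.0171.

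SLC51A (ENSG00000163959, chr3:196211487-196243178 on the plus strand) encodes OSTα, the membrane-spanning subunit of the same carrier. It had 512, 582 and 351 counts with sh-NC and 347, 298 and 205 with sh-LINC01977, or 9.40, 11.8 and 5.96 CPM against 6.30, 4.90 and 3.98 CPM. The third sh-NC library lay below the first sh-LINC01977 library, so the groups overlapped. The means were 9.05 ± 2.9 and 5.06 ± 1.2 CPM (SD, n = 3 each), and the log2 fold change was -0.84 (standard error 0.28, 95% interval -1.52 to -0.16, adjusted p = 0.101 from edgeR, exact permutation p = 0.2). The call depended on that library and on the tool. Leaving out the third sh-NC library gave -1.06 (adjusted p = 0.0433), and DESeq2 gave -0.84 with the filter (adjusted p = 0.0208) and -0.85 without it (adjusted p = 0.0174). Across the alternatives that changed a single choice, adjusted p lay between 0.0208 and 0.230.

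The subunits were present in unequal amounts. The ratio of SLC51B to SLC51A, both in FPKM, was 16.8, 12.1 and 25.9 with sh-NC and 13.2, 18.3 and 22.2 with sh-LINC01977. These ratios overlapped fully between the groups (exact two-sided permutation test on log2 ratios, p = 1), and they differed by more among the sh-NC libraries than between the groups. A shift in the balance of the subunits was thus not detectable with these libraries.

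The stretches upstream of both subunit genes are shown because the genes code for a single carrier, and SLC51B passed the test while SLC51A did not. They are read from RefSeq promoter windows of GRCh38.p14, end where the next GENCODE 29 exon of the gene begins, and run 5′ to 3′ along the gene, with matches to the motifs searched in capitals. The SLC51B stretch is chr15:65045137-65045369 on the plus strand, and the SLC51A stretch is chr3:196216284-196216503 on the plus strand.
SLC51B: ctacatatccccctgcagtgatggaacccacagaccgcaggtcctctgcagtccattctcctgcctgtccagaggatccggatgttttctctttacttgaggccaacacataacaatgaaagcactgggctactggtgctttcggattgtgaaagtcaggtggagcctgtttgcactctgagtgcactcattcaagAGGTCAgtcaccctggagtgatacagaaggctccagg
SLC51A: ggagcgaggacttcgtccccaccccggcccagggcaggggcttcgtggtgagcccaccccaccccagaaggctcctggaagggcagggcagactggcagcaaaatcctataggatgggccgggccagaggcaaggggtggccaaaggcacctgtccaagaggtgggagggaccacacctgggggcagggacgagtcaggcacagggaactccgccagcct
The capitals in SLC51B are AGGTCA, the core site that many nuclear receptors bind, on the strand of the gene and with its first base 54 bases before the RefSeq start. The SLC51A stretch holds none of the motifs. The RefSeq start of SLC51A lies inside the interval that the deposited table gives for the gene, so it is not the only start annotated there.

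SLC22A7 (ENSG00000137204, chr6:43295694-43305538 on the plus strand) encodes OAT2, an anion exchanger of the basolateral membrane of hepatocytes, and had the largest decrease among the transporters called. Control libraries held 183, 184 and 258 counts of SLC22A7 and sh-LINC01977 libraries 61, 64 and 78. As CPM these were 3.36, 3.73 and 4.38 against 1.11, 1.05 and 1.51. The highest sh-LINC01977 library was below the lowest sh-NC library by more than the range of either group. The mean fell from 3.82 ± 0.52 to 1.22 ± 0.25 CPM (SD, n = 3 each), 3.12-fold, and the log2 fold change was -1.64 (standard error 0.22, 95% interval -2.17 to -1.12, adjusted p = 0.00502 from edgeR, exact permutation p = 0.1). It was called in all 15 alternatives that gave it a value.

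The stretch upstream of SLC22A7 is shown as that of the transporter with the largest called change. It covers chr6:43298092-43298259 on the plus strand, from the end of an exon annotated to another SLC22A7 transcript to the RefSeq start.
SLC22A7: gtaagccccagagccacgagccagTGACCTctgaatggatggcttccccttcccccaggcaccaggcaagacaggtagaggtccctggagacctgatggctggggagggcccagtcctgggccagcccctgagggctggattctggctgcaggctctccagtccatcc
The capitals are AGGTCA on the opposite strand, and they begin 144 bases before the RefSeq start.

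SLC22A9 (ENSG00000149742, chr11:63369789-63410294 on the plus strand) encodes OAT7, a liver anion transporter of sulfate conjugates such as estrone sulfate. The sh-NC libraries held 73, 8 and 49 of its counts and the sh-LINC01977 libraries 23, 10 and 53. The second library was the lowest of each group, and the groups overlapped over nearly their whole range. The levels were 0.778 ± 0.59 and 0.537 ± 0.44 CPM (SD, n = 3 each), and the log2 fold change was -0.57 (standard error 0.84, 95% interval -2.51 to 1.38, adjusted p = 0.755 from edgeR). The interval is wide and holds falls of several fold as well as a smaller rise.

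SLCO4C1 (ENSG00000173930, chr5:102233986-102296549 on the minus strand) encodes OATP4C1, best known as a carrier of digoxin and thyroid hormone in the kidney. It had 214, 192 and 243 counts with sh-NC and 93, 87 and 90 with sh-LINC01977, which is 3.93, 3.89 and 4.13 CPM against 1.69, 1.43 and 1.75 CPM. Within each group the libraries were close together, and the groups were far apart. The mean fell from 3.98 ± 0.13 to 1.62 ± 0.17 CPM (SD, n = 3 each), 2.48-fold, and the log2 fold change was -1.31 (standard error 0.17, 95% interval -1.72 to -0.90, adjusted p = 0.00666 from edgeR in the fit of all listed genes, exact permutation p = 0.1). SLCO4C1 lay below the filter because the sh-LINC01977 libraries brought its mean FPKM to 0.421, and it was called in all 15 alternatives that gave it a value. The 250 bases before its RefSeq start lie inside its first GENCODE 29 exon, and their window held none of the motifs.

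SLCO2B1 (ENSG00000137491, chr11:75100563-75206549 on the plus strand) encodes OATP2B1, a broad carrier of steroid sulfates and statins in liver and intestine. It had 837, 657 and 882 counts with sh-NC and 1013, 1028 and 539 with sh-LINC01977, or 15.4, 13.3 and 15.0 CPM against 18.4, 16.9 and 10.5 CPM. The first and second sh-LINC01977 libraries were above all sh-NC libraries and the third was below all of them. The log2 fold change was 0.068 (standard error 0.21, 95% interval -0.43 to 0.57, adjusted p = 0.862 from edgeR), and the interval does not include a fall of the size measured for SLC51B. It moved to 0.28 (adjusted p = 0.196) when the third sh-LINC01977 library was left out and to -0.087 when the first was.

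SLCO1B3 (ENSG00000111700, chr12:20810702-20916911 on the plus strand) encodes OATP1B3, a liver carrier of bile acids, bilirubin conjugates and several anticancer drugs. Few reads fell on it, 34, 34 and 35 counts with sh-NC and 28, 27 and 12 with sh-LINC01977. All 3 sh-LINC01977 libraries were below the sh-NC libraries, at 0.509, 0.444 and 0.233 CPM against 0.624, 0.689 and 0.595 CPM, although the log2 fold change of -0.69 (standard error 0.41, 95% interval -1.64 to 0.26) did not pass the test (adjusted p = 0.447 from edgeR). Of the 31-base words of its transcripts, 53.4% also occur in transcripts of the gene AC011604.2, so the assignment of its reads is uncertain.

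SLC10A1 (ENSG00000100652, chr14:69775417-69797289 on the minus strand) encodes NTCP, the main sodium-dependent bile acid carrier of hepatocytes and the entry receptor of hepatitis B virus. It had 6, 0 and 4 counts with sh-NC and 0, 0 and 8 with sh-LINC01977. NTCP transcripts were thus at or near the floor of 3 counts in both groups, so its fitted fold change is not read as a measurement, and a difference was not detectable at this depth.

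Groups without overlap were also counted, as a description of the same libraries. In CPM, all 3 sh-LINC01977 libraries lay below all 3 sh-NC libraries for SLC51B and SLC22A7 among the 4 transporters above the filter, where 18.3% of all tested genes showed this, and for SLCO4C1 and SLCO1B3 among the 4 below it. Among all listed genes, 10.4% showed it. SLC22A7 was among the 4 above the filter only through the sh-NC libraries, so its count there is a description. No transporter had all sh-LINC01977 libraries above the sh-NC libraries.

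**Figure D2:**
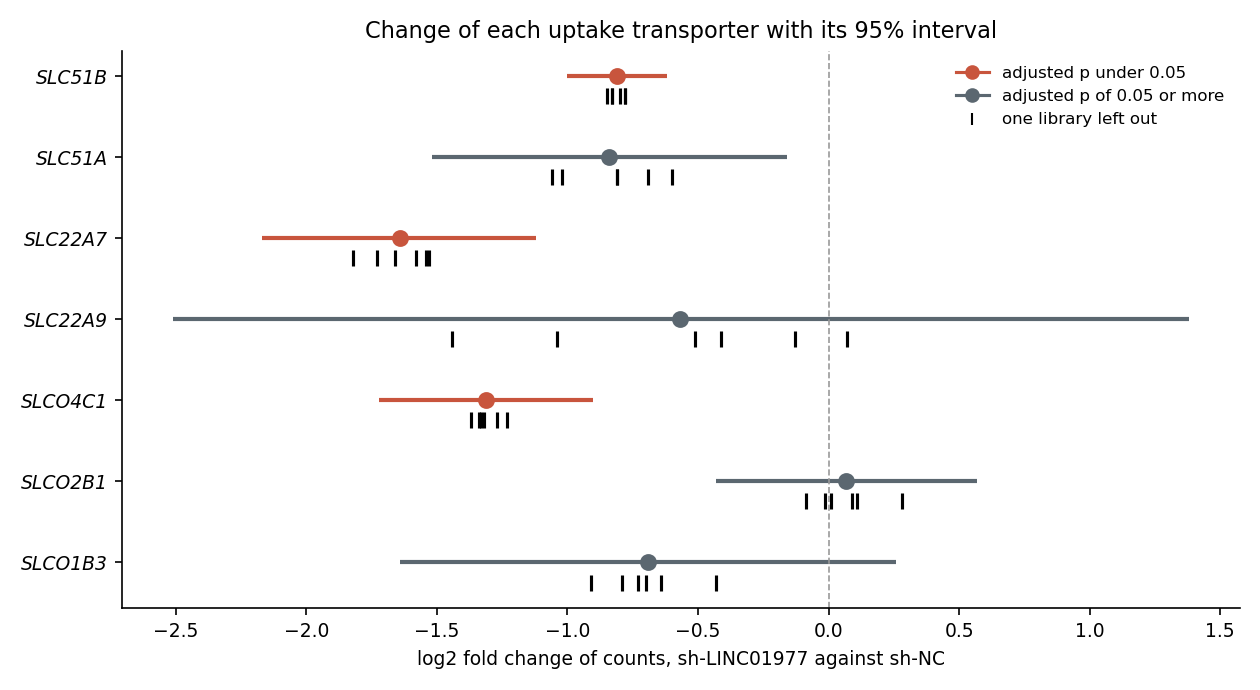
Log2 fold change of counts, sh-LINC01977 against sh-NC, for 7 transporters (points) with the 95% interval for each gene alone, unadjusted (lines), and the values with 1 library left out in turn (black ticks); SLC10A1 is left out because it was near the floor. The intervals of SLC51B, SLC22A7 and SLCO4C1 lie far below zero, that of SLC51A ends at -0.16, that of SLCO2B1 spans zero, and those of SLC22A9 and SLCO1B3 are wide.

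Levels between transporters were compared per length, as FPKM. In sh-NC cells the order of mean levels was SLC51B (22.6 ± 1.1 FPKM), SLC51A (1.34 ± 0.43), SLCO2B1 (1.11 ± 0.078), SLC22A7 (0.848 ± 0.12), SLCO4C1 (0.592 ± 0.022), SLC22A9 (0.256 ± 0.19), SLCO1B3 (0.140 ± 0.013) and SLC10A1 (0.0221 ± 0.021; SD, n = 3 each). Neighbours in this order had overlapping libraries for SLC51A with SLCO2B1 and for SLC22A9 with SLCO1B3, and the other neighbours were apart. In sh-LINC01977 cells the order was SLC51B (13.4 ± 0.56 FPKM), SLCO2B1 (1.21 ± 0.33), SLC51A (0.781 ± 0.18), SLC22A7 (0.283 ± 0.062), SLCO4C1 (0.251 ± 0.030), SLC22A9 (0.184 ± 0.15), SLCO1B3 (0.0883 ± 0.032) and SLC10A1 (0.0201 ± 0.035; SD, n = 3 each). There, only SLC51B and SLCO2B1, and SLC51A and SLC22A7, were neighbours without overlap. By mean level, the well-known uptake carriers of hepatocytes, SLC10A1 and SLCO1B3, were thus the lowest 2 of the 8 in both groups.

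The summed level of the 8 transporters was 27.65, 25.75 and 27.21 FPKM with sh-NC, and with sh-LINC01977 it was 16.04, 16.24 and 16.49 FPKM. SLC51B alone made up 80.0% to 85.0% of this sum in every library, so the sum mostly follows SLC51B.

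**Figure D3:**
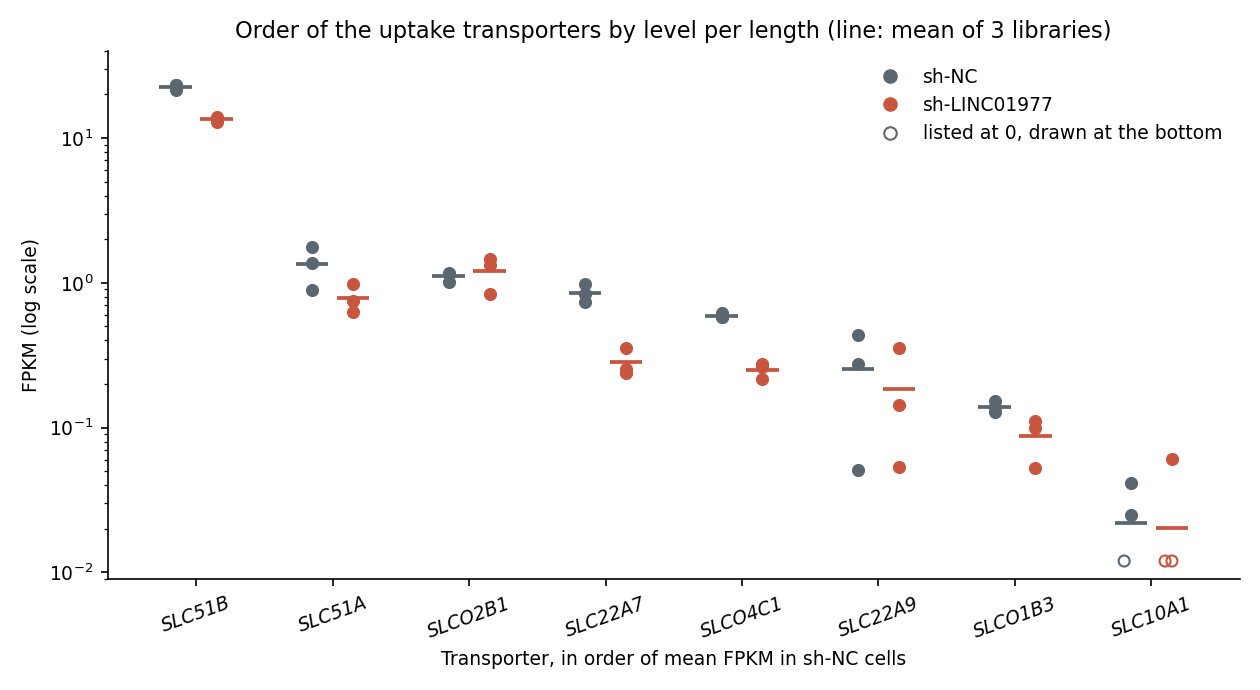
FPKM of each transporter in every library on a log axis, in the order of the sh-NC means, with open circles for libraries in which a gene was listed at 0. SLC51B stands above the other transporters in both groups, at 22.6 and 13.4 FPKM on average, and SLC10A1 has the lowest mean.

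Related genes were taken from lists of the transporters' families and of bile acid handling, and described by counts over the tested genes, whose median log2 fold change was -0.0010 and of which 8.07% were called lower and 7.05% higher. At an unadjusted p under 0.05 these shares were 15.4% and 15.1%, and by DESeq2 they were 11.5% and 10.5% of the 12912 genes with an adjusted p. Among the other SLCO, SLC10, SLC22 and MATE (SLC47) genes, 31 were in the table and 10 were tested, of which 3 were called lower and 0 higher (0 higher at an unadjusted p under 0.05 and by DESeq2), with a median of -0.23. The cation extruder MATE1 (SLC47A1) had a log2 fold change of -0.81 (adjusted p = 0.00129 from edgeR). The orphan carrier SLC22A23 had -0.66 (adjusted p = 0.00160) and the organic cation transporter OCT3 (SLC22A3) -0.64 (adjusted p = 0.00187). Another 21 lay below the filter, and 0 were called in the fit of all listed genes (2 higher at an unadjusted p under 0.05, 0 by DESeq2).

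A list of ATP-driven exporters and partners of bile component export, which leaves out SLC51A and SLC51B, had a median of -0.033. Of 10 tested, 1 was called lower and 0 higher (2 lower and 0 higher at an unadjusted p under 0.05, 1 lower and 0 higher by DESeq2). The gene called was ABCC6, a transporter of the basolateral membrane, with -0.32 (adjusted p = 0.0122 from edgeR). The canalicular conjugate pump MRP2 (ABCC2) had 649 ± 15 CPM in sh-NC and 648 ± 36 CPM in sh-LINC01977 libraries (SD, n = 3 each), and its log2 fold change was -0.0022. The basolateral pumps MRP3 (ABCC3) and MRP4 (ABCC4) had 0.051 and -0.14, neither called. The bile salt export pump ABCB11 was listed at 0 counts in 5 libraries and had 8 counts in the third sh-LINC01977 library.

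Bile acid synthesis and conjugation had 12 tested genes, of which 4 were called lower and 0 higher (1 higher at an unadjusted p under 0.05, 0 by DESeq2), with a median of -0.33. AKR1D1, the steroid 5β-reductase, had -1.59 (adjusted p = 0.0105 from edgeR). HSD3B7, which oxidises the steroid ring, had -0.51 (adjusted p = 0.00504), and the peroxisomal side-chain enzymes ACOX2 and HSD17B4 had -0.46 and -0.37 (adjusted p = 0.0337 and 0.00302). CYP7A1, the rate-limiting enzyme of the classical pathway, had counts of 6, 0 and 5 in sh-NC and 0 in every sh-LINC01977 library, at or near the floor.

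Regulators of bile acid transport and synthesis included 19 tested genes, of which 10 were called lower and 0 higher (12 lower and 1 higher at an unadjusted p under 0.05, 11 lower and 0 higher by DESeq2), with a median of -0.34. NR1H4, which encodes FXR, had 93.5, 102 and 106 CPM with sh-NC and 33.6, 35.7 and 42.5 CPM with sh-LINC01977. The groups were far apart, and the log2 fold change was -1.43 (adjusted p = 8.71e-04 from edgeR). Its target NR0B2, the corepressor SHP, had -0.69 (adjusted p = 0.00193) and its partner RXRA -0.48 (adjusted p = 0.0122). KLB, the FGF19 co-receptor β-klotho, had -1.79 (adjusted p = 5.18e-04), the hepatocyte factor ONECUT1 -1.58 (adjusted p = 0.00409), the coactivator PPARGC1A -1.02 (adjusted p = 0.00287) and HNF4A -0.55 (adjusted p = 0.00715). ONECUT1 passed the filter only through the sh-NC libraries (0.928 FPKM on average, against 0.319 FPKM in sh-LINC01977 libraries), so its place among the tested genes rests on its own difference. CEBPB, FOXA1 and CEBPA were also called, with smaller values of -0.41, -0.34 and -0.22 (adjusted p = 0.0499, 0.00705 and 0.0230 from edgeR). The call of CEBPB was thus at the edge of the threshold. The pregnane X receptor NR1I2 (0.46, adjusted p = 0.134) did not pass the test. Whether the level of any regulator bears on that of a transporter was not tested.

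Among partners of transporter trafficking, 6 were tested, 3 were called lower and 0 higher (1 higher at an unadjusted p under 0.05, 0 by DESeq2), with a median of -0.11. The scaffold PDZK1, which binds the tails of several OATPs, had -0.79 (adjusted p = 0.0283 from edgeR), the fatty acid and bile acid binding protein FABP1 -0.77 (adjusted p = 0.00982) and the scaffold SLC9A3R1 -0.37 (adjusted p = 0.0175). The deposited annotation places 56 genes other than the transporters in the KEGG pathway bile secretion, of which 34 were tested, 9 were called lower and 2 higher, with a median of -0.14. The 9 include NR1H4, NR0B2 and RXRA, the conjugating enzymes UGT2B4 (-2.34) and SULT2A1 (-1.50), the water channel AQP8 (-1.23), ADCY9 (-0.45) and the lipoprotein receptor SCARB1 (-0.34). UGT2B4 (2.14 and 0.441 FPKM on average in sh-NC and sh-LINC01977 libraries) and AQP8 (0.697 and 0.307 FPKM) likewise passed the filter only through the sh-NC libraries. Those called higher include the glucose transporter SLC2A1 (0.34). In these lists, 1 exporter, 4 synthesis genes, 5 regulators, 1 partner and 22 genes of the KEGG pathway lay below the filter, and 0 of them were called by edgeR in the fit of all listed genes (1 lower and 3 higher in the KEGG pathway and 1 higher in synthesis at an unadjusted p under 0.05, and 1 higher in each of these by DESeq2). The lists share genes, so their counts cannot be added.

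**Figure D4:**
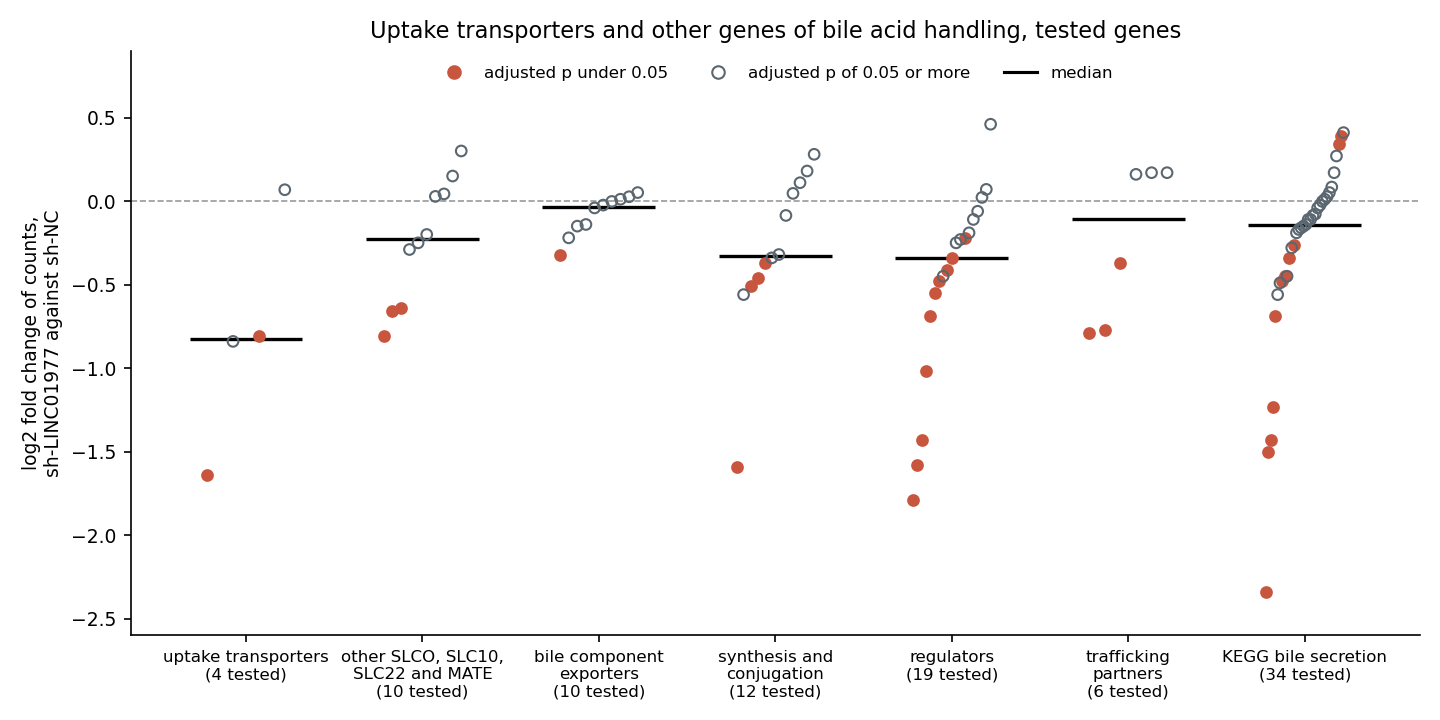
Log2 fold change of counts, sh-LINC01977 against sh-NC, of each tested gene (points, filled at an adjusted p under 0.05) in the transporter list and in the 6 related lists, with the median of each list as a line. Exporters cluster around zero with a median of -0.033, while regulators and synthesis genes reach further down, with medians of -0.34 and -0.33.

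The promoter windows of the transporters were searched, on both strands and from 250 bases before to 50 after each RefSeq start. The motifs given here are CAAAGTCCA (an HNF4 site), AGGTCA (a core site of nuclear receptors), CCAAT and TATAAA. RefSeq windows matched 7 of the 8 transporters, 2 of them for SLCO2B1 and none for SLC22A9. AGGTCA was in the windows of SLC51B, SLC22A7, SLC10A1 and SLCO1B3, 4 of 8 windows, and in 13.8% of all 35116 RefSeq windows. CAAAGTCCA was in 1 window of SLCO2B1 (0.384% of all windows), CCAAT in SLCO1B3 and SLCO2B1 (34.6%) and TATAAA in none (11.5%). No match overlapped another in these windows. Of the transporters called lower, SLC51B and SLC22A7 had AGGTCA and SLCO4C1 had none of the letters searched, and the uncalled SLC10A1 and SLCO1B3 had AGGTCA too. The GC content of the 250 upstream bases was 52.8% for SLC51B, 65.6% for SLC51A, 62.0% for SLC22A7 and 69.2% for SLCO4C1, against a median of 58.0% over all windows. A match describes the letters only, and binding was not measured.

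Genes on the opposite strand share exon bases with some transporters, and the sources used here do not state whether counting used strand. PCYT1A overlaps 7.35% of the exon bases of SLC51A, RASL12 6.38% of those of SLC51B and CRIP3 4.2% of those of SLC22A7. PCYT1A is far more abundant than SLC51A, with 2863 to 3977 counts per library, and had a log2 fold change of -0.20 (adjusted p = 0.0552 from edgeR). RASL12 had at most 25 counts in any library against 800 or more for SLC51B. CRIP3, with 82 to 145 counts, had -0.25 (adjusted p = 0.548), while SLC22A7 had -1.64.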

How the data were processed

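RNA of 6 HepG2 libraries, 3 with sh-NC and 3 with sh-LINC01977 at 72 h, was isolated with TRIzol and read on an Illumina HiSeq sequencer. The submitters' processing notes name bcl2fastq 2.0, HISAT2, StringTie, DESeq2, limma and the build hg38 without their roles, and the counting tool and annotation are not given in the sources used here. The authors deposited raw counts, whole numbers per gene, and FPKM values, which are scaled to transcript length and library total. The start and end of the 8 transporters equal those in GENCODE 29.

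The test was the quasi-likelihood test of edgeR 4.0.16 under R 4.3.3, with TMM scaling and Benjamini-Hochberg adjustment, over genes whose mean FPKM reached 0.5. Transporters below this filter were read from the same fit of all listed genes. CPM are counts scaled to the tested genes' total times the TMM factor. Intervals use the total degrees of freedom of the fit, which add prior degrees of freedom shared across genes to the residual ones. The standard error is the size of the log2 fold change divided by the square root of the test's F statistic. Single values were also compared by the exact permutation test, two-sided.

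A floor of 3 counts was set by choice and not derived from the libraries, whose total counts were 49929024 to 60441515. Counts of 4 (8101 gene and library pairs) were more frequent than counts of 3 (2780) or 5 (1758), so counts may not be independent fragments, and intervals cover the spread between libraries only.

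All transporters were named. From the related lists, genes called at an adjusted p under 0.05 were named, up to 8 per list by size of change. KLB, ONECUT1, NR1H4, PPARGC1A, NR0B2, HNF4A, RXRA and CEBPB filled that number for the regulators. FOXA1, CEBPA, NR1I2, SCARB1, SLC2A1, ABCC2, ABCC3, ABCC4, ABCB11 and CYP7A1 were added after their values were seen. The transporters and lists were chosen with earlier results of these data known. Alternatives were DESeq2 1.42.0, limma 3.58.1 on log2(FPKM + 0.1) and log2(FPKM + 1), RLE, upper-quartile and library-total scaling, other filters, counts divided by 4, a replicate block and leaving out each library. SLCO1B1 is not analysed here, and some genes of the related lists, and 1 of the 5 motifs searched, are not reported here.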

Additional observations from a re-analysis of the deposited data

How the results depend on the processing

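The calls of SLC51B, SLC22A7 and SLCO4C1 and their direction held in every alternative that gave them a value. SLC22A7 ranged from -1.82 to -0.53 and SLCO4C1 from -1.37 to -0.35 on the log2 scale. The values nearest zero came from limma on log2(FPKM + 1), whose pseudocount understates low genes. The number of transporters called, 3, was 1 when the filter was raised to 1 FPKM, since only SLC51B, SLC51A and SLCO2B1 were then tested. SLC51A became called with DESeq2, at -0.84 (adjusted p = 0.0208). The cause was not tested.

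With 1 library left out in turn, SLC51A ranged from -1.06 to -0.60 (adjusted p from 0.0433 to 0.230). SLCO2B1 ranged from -0.087 to 0.28 (adjusted p from 0.196 to 0.987), SLC22A9 from -1.44 to 0.069 (0.519 to 0.987) and SLC10A1 from -4.80 to 0.51 (0.486 to 0.982). These 3 changed sign, and the fitted values of SLC10A1, near the floor, depend on the prior count. The number of all tested genes called, 2033, ranged from 1176 to 1398 in these smaller fits and was 2845 with DESeq2. The labels number the replicates but do not state whether the numbers pair the libraries. Deviations of same-numbered libraries from their group means correlated with r = -0.032, 0.004 and 0.063 over the tested genes. No shared shift was visible, but values near zero over many genes cannot exclude a pairing. With the number as a replicate block, 1390 of all tested genes and 3 transporters were called. The regulators called were then 9 and the trafficking partners 2, and the counts of the other related lists did not change. Without a filter, 3 synthesis genes, 9 regulators and 10 genes of the KEGG pathway were called. Library totals moved the median of all tested genes from -0.0010 to 0.065. SLC10A1, SLCO1B3 and SLC22A9 had at most 73 counts in any library, and SLC22A9 also varied widely within each group (8 to 73 and 10 to 53 counts).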
